A study of Caenorhabditis elegans with 6 samples.

Results

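The abu genes (activated in blocked unfolded protein response) and the pqn genes (prion-like, rich in glutamine and asparagine) of Caenorhabditis elegans were followed across arrays of worms exposed to GYY4137, which releases hydrogen sulfide slowly, and of control worms. Members were the probe sets for which every gene symbol in the platform annotation began with abu- or pqn-, and there were 102 of them among 22625 probe sets. They stood for 69 genes, all of which were found by gene number in the RefSeq gene table, 2 of them listed as pseudogenes. Of the 102, 48 were plain _at probe sets, made for 1 transcript, 34 were _s_at and 20 were _x_at. Probe sets of the last 2 classes can bind transcripts of related genes, and 9 members carried several symbols.

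The study held 3 arrays of worms labelled as exposed to hydrogen sulfide and 3 of control worms. All 6 samples were whole animals of the wild-type strain N2 (Bristol), labelled as L4 larvae, and no mutation or transgene was given for either group. Exposure was to GYY4137 at 100 uM, first for 48 h in liquid culture and then for 12 h on plates. The protocol is worded alike for every array, so the handling of the controls is not given in the sources used here. Oocyte markers were measurable in both groups, for example the eggshell gene cbd-1 at 9.82 ± 0.25 with GYY4137 and 10.11 ± 0.11 in controls (log2, SD, n = 3 each), in samples labelled as larvae.

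Abu genes were named for their induction in worms in which the XBP-1 branch of the unfolded protein response cannot act, and that induction needs the engulfment receptor CED-1. Many abu and pqn genes are close paralogs that encode secreted proteins. They are expressed in the pharynx, the feeding organ, with transcripts that cycle with the moults, and abu-14 is needed for a normal pharyngeal cuticle. The neuronal receptor OCTR-1 holds several of them down during infection. The name pqn gathers genes by amino acid content, so it also covers unrelated proteins such as PQN-59, a stress granule protein, and PQN-41, which acts in the death of the linker cell.

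Values are log2 GCRMA values per probe set. Between 7723 and 8050 probe sets per array lay above a log2 floor of 4. A probe set was tested when it lay above that floor on at least 3 of the 6 arrays, and 8053 were tested with limma over the whole array. A probe set was called at a Benjamini-Hochberg adjusted p under 0.05. GYY4137 replicate 3 stood apart, with Pearson correlations of 0.978 to 0.986 with the other 5 arrays over all probe sets, against 0.992 to 0.997 among those 5. The main counts are also given without it, and the values it moved are given beside several results and in the closing section. The labels do not state separate cultures for the replicates, and the p-values therefore reflect a spread among samples that may be technical. In whole animals, fewer cells of a type and less RNA per cell cannot be told apart.

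A group of closely related abu genes was lower after GYY4137. Probe sets for abu-15, abu-6, abu-7, abu-8 and the pair pqn-2 and abu-1 fell, with differences of -1.87 to -1.34 on the log2 scale, or 2.53-fold to 3.65-fold lower. Of 31 tested probe sets with pqn symbols alone 0 were called, which is near the shares over all tested probe sets (0.41% lowered, 1.09% raised). Abu-14 differed by -0.23 and -0.17 on its probe sets and abu-13 by 0.73, and none of these passed.

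**Figure D1:**
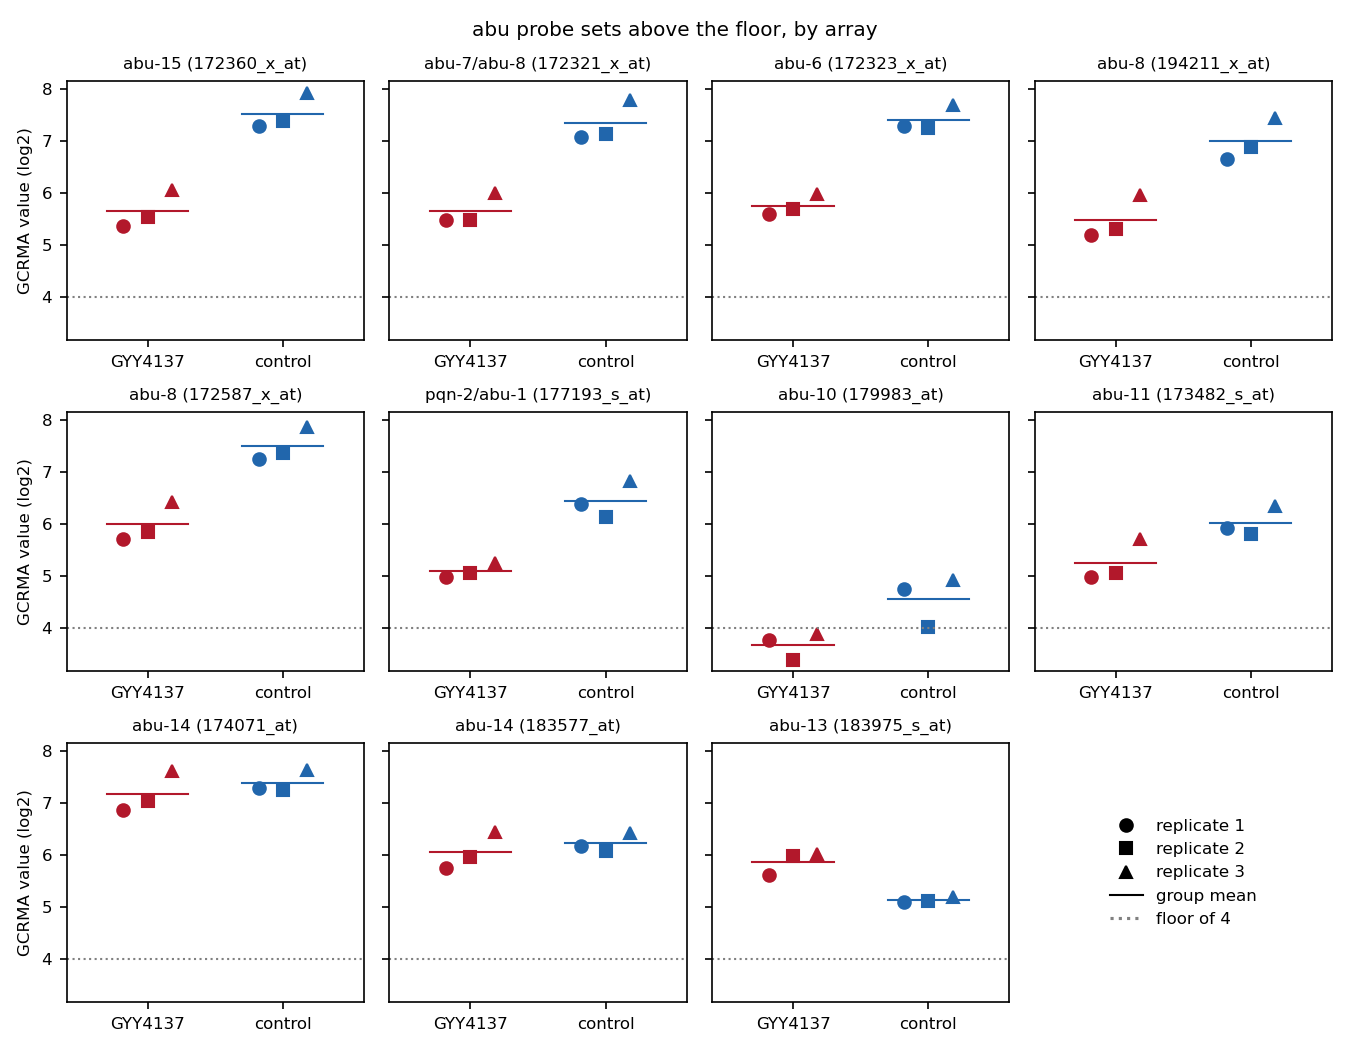
Log2 GCRMA values on each array (vertical axis) of the 11 tested probe sets with an abu symbol, with GYY4137 arrays on the left (red) and control arrays on the right (blue); symbols mark the replicate number, short lines the group mean and the dotted line the floor of 4. The GYY4137 arrays lie below all control arrays in 8 panels, abu-14 overlaps on both of its probe sets, and abu-13 is higher with GYY4137.

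Abu-15 (172360_x_at) was at 5.36, 5.54 and 6.06 in GYY4137 worms and at 7.28, 7.37 and 7.91 in control worms. The groups did not overlap, and the lowest control array lay more than 1 log2 unit above the highest GYY4137 array. It fell by 1.87 ± 0.23 on the log2 scale (here and below, ± after a difference is its standard error from limma, n = 3 arrays per group; adjusted p = 0.0149).

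Abu-6 (172323_x_at) was at 5.60, 5.69 and 5.98 in GYY4137 worms and at 7.29, 7.25 and 7.68 in control worms, and it fell by 1.65 ± 0.16 (limma adjusted p = 0.00700). The 3 arrays of each group lay closer together for abu-6 than for the other called members with 1 symbol.

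Abu-8 was read by 3 probe sets, 1 of which also matched abu-7. The probe set for abu-7 and abu-8 (172321_x_at) gave 5.49, 5.49 and 6.0 with GYY4137, against 7.08, 7.13 and 7.79 in controls, and it fell by 1.68 ± 0.23 (limma adjusted p = 0.0212). The probe sets for abu-8 alone fell by 1.5 ± 0.26 (194211_x_at, limma adjusted p = 0.0461) and fell by 1.49 ± 0.23 (172587_x_at, limma adjusted p = 0.0344). On 194211_x_at the values were 5.19, 5.31 and 5.96 with GYY4137 and 6.65, 6.88 and 7.43 in controls, and on 172587_x_at they were 5.72, 5.84 and 6.43 with GYY4137 and 7.25, 7.35 and 7.86 in controls. All 3 probe sets separated the groups, but they share a gene and do not count as separate evidence.

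The probe set for pqn-2 and abu-1 (177193_s_at) was at 4.99, 5.06 and 5.25 in GYY4137 worms and at 6.38, 6.13 and 6.82 in control worms. It fell by 1.34 ± 0.19 (limma adjusted p = 0.0223), again with no overlap. It was the 1 called member outside the _x_at class.

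Most of the called genes have another called gene as a direct neighbour in the genome. In the RefSeq gene order, abu-15, abu-6 and abu-7 follow one another with 0 protein-coding genes between them, and 6 lie between abu-7 and abu-8. Abu-1 and pqn-2 are also direct neighbours. Members that were not called adjoin each other too, such as pqn-57 and abu-9, or pqn-90 and pqn-91. The share of each gene in a signal that paralogs may contribute to cannot be told apart, and none of the 6 called members was a plain _at probe set.

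In all, 6 of the 42 tested members were lowered, 0 were raised and 36 did not pass. The lowered members were 14.3% of those tested, against 0.41% of all 8053 tested probe sets that were lowered and 1.09% that were raised. By class, 5 of 9 tested _x_at, 1 of 16 tested _s_at and 0 of 17 tested plain _at probe sets were lowered. At an unadjusted p under 0.05, 12 members were lower (28.6%, against 8.52% of all tested) and 2 were higher (4.76%, against 9.2%). The groups did not overlap for 15 members that were lower with GYY4137 (35.7%, against 15.6%) and for 2 that were higher (4.76%, against 13.4%). The 12 and the 15 both include abu-10 (179983_at), which passed the filter through the controls alone. Members are not independent of each other, since paralogs can share probe signal.

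**Figure D2:**
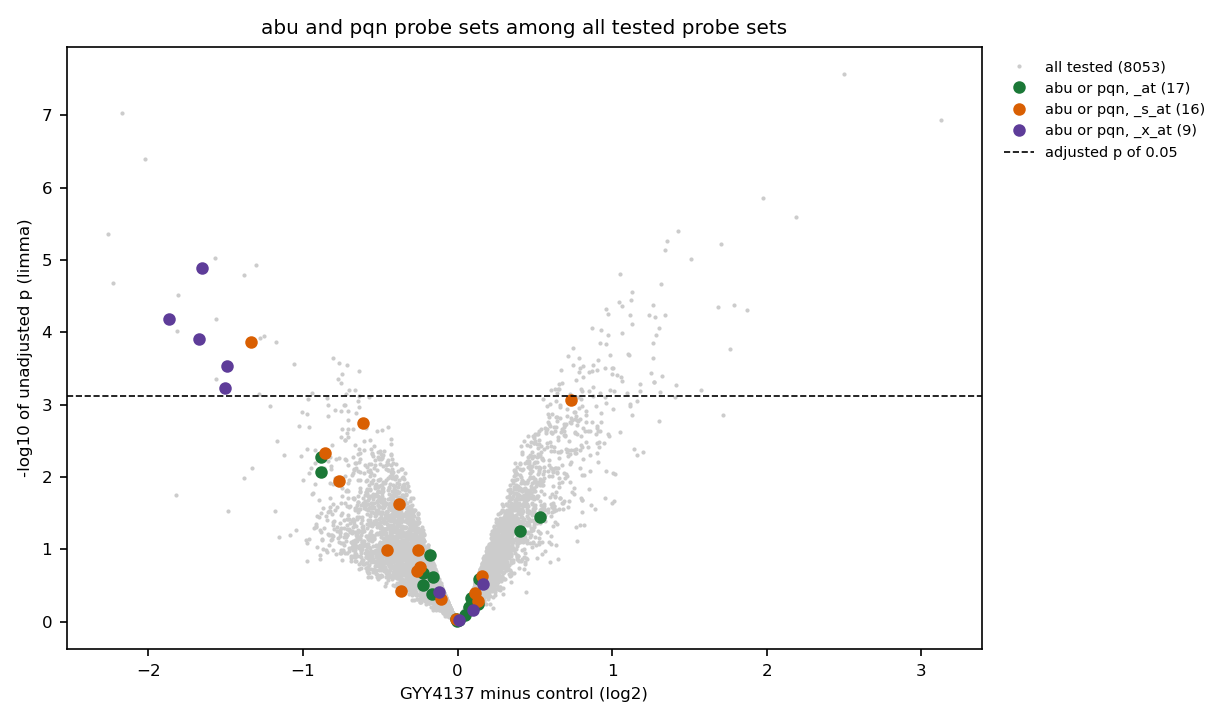
Difference GYY4137 minus control (log2, horizontal axis) against −log10 of the unadjusted limma p (vertical axis) for all 8053 tested probe sets (grey) and the 42 tested abu and pqn probe sets (coloured by class); the dashed line marks the adjusted p of 0.05. The 6 called members, 5 of them _x_at, lie between -1.87 and -1.34 above the line, and the abu-13 probe set lies just under the line on the right.

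Of the tested members, 36 lay above the floor on all 6 arrays, and 5 on some arrays of both groups. Abu-10 (179983_at) passed the floor through the controls alone, so a difference there is partly set by the filter. The median difference was -0.16 over the 42 tested members and -0.04 over all tested probe sets, and -0.01 over all 102 members. By class the median of the tested members was -1.49 for _x_at, -0.26 for _s_at and -0.00 for plain _at probe sets. For the 11 tested probe sets with an abu symbol it was -1.34, and for the 31 with pqn symbols alone it was -0.01.

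Other abu genes were lower by less and did not pass. Abu-11 (173482_s_at) was at 4.99, 5.06 and 5.72 with GYY4137 and at 5.93, 5.81 and 6.34 in controls, a difference of -0.76 ± 0.23 (limma adjusted p = 0.168). Abu-10 (179983_at) was at 3.78, 3.40 and 3.89 with GYY4137 and at 4.75, 4.03 and 4.93 in controls, a difference of -0.88 ± 0.25 (limma adjusted p = 0.149). Neither overlapped between groups, but the GYY4137 values of abu-10 all lay under the floor and the size of its difference is uncertain. A further abu-10 probe set (188148_at) lay between 2.41 and 2.48 on all 6 arrays, under the floor.

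Abu-14, the member with a known part in the pharyngeal cuticle, was read by a pair of plain _at probe sets. On 174071_at it was at 6.86, 7.03 and 7.60 with GYY4137 and at 7.29, 7.25 and 7.62 in controls, a difference of -0.23 ± 0.21 (limma adjusted p = 0.556). On 183577_at the difference was -0.17 ± 0.19 (limma adjusted p = 0.640). The groups overlapped on both. These values depended on single arrays: 174071_at differed by -0.44 without GYY4137 replicate 3 and by -0.08 without GYY4137 replicate 1, and 183577_at by -0.36 and -0.02 in the same leave-outs. Whether abu-14 differed less than abu-6 or abu-15 was not tested.

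Abu-13 (183975_s_at), whose function is less described, was higher with GYY4137. Its values were 5.61, 5.98 and 6.01 with GYY4137 and 5.10, 5.11 and 5.19 in controls, without overlap. The difference of 0.73 ± 0.14 did not pass (limma adjusted p = 0.0534), although it passed after quantile normalization (0.80, adjusted p = 0.0486) and median centring (0.81, adjusted p = 0.0455).

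The remaining abu genes did not pass the filter on low values. Abu-2, abu-3 and the 3 probe sets of abu-4 lay between 2.27 and 2.86 on all arrays. The 2 probe sets that name abu-5 together with pqn-76, pqn-78, pqn-79, pqn-90 and pqn-91 lay between 2.79 and 3.81. Abu-12 (180624_s_at) was at 3.81, 3.70 and 4.24 with GYY4137 and at 3.48, 3.51 and 3.72 in controls. The neighbouring genes pqn-57 and abu-9, which share 185654_s_at, were at 2.76, 2.79 and 3.30 with GYY4137 and at 4.07, 3.86 and 3.84 in controls. In the fit without a filter this probe set differed by -0.98 (limma adjusted p = 0.154), with every GYY4137 array below every control array and 5 of 6 values under the floor.

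Among probe sets with pqn symbols alone, 17 of the 31 tested lay below control, 14 lay above it and 0 passed. Over all tested probe sets 57.1% lay below control, so these counts are at the background. Those with the smallest p lay below control. Pqn-22 (185070_s_at) was at 7.22, 7.43 and 7.19 with GYY4137 and at 7.71, 7.95 and 8.0 in controls, a difference of -0.61 ± 0.13 (limma adjusted p = 0.0768). Pqn-74 (179437_s_at) was at 4.33, 4.51 and 4.79 with GYY4137 and at 5.15, 5.20 and 5.84 in controls (-0.86 ± 0.21, limma adjusted p = 0.118). Pqn-54 (183344_at) was at 3.62, 3.98 and 4.31 with GYY4137 and at 5.10, 4.48 and 4.98 in controls (-0.88 ± 0.23, limma adjusted p = 0.122). None of the 3 overlapped between groups, and none passed.

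Pqn-21 (175749_s_at) differed by -0.38 ± 0.13 (limma adjusted p = 0.223) without overlap. A further pair of pqn-21 probe sets lay under the floor. For pqn-70 the differences rested on 1 array. Its probe set 184466_s_at was at 8.25, 7.98 and 6.63 with GYY4137 and at 7.91, 7.87 and 8.19 in controls. Without GYY4137 replicate 3, which gave the low value, the difference turned to 0.13, against -0.36 with all arrays. The other pqn-70 probe set (184458_s_at), at 6.41, 6.45 and 5.54 with GYY4137 and 6.62, 6.7 and 6.46 in controls, differed by -0.46 ± 0.25, and by -0.16 without that array.

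On the higher side, pqn-94 (177254_at) was at 7.33, 7.2 and 7.90 with GYY4137 and at 6.75, 6.90 and 7.18 in controls, a difference of 0.54 ± 0.21 without overlap (limma adjusted p = 0.254), and of 0.32 without GYY4137 replicate 3. Pqn-31 (185398_at) differed by 0.40 ± 0.18 (limma adjusted p = 0.295) and the groups overlapped. The other tested pqn probe sets above control differed by 0.01 to 0.16. Among those that were not tested, pqn-75 (182930_at) was higher by 0.48 and pqn-36 (172391_x_at) by 0.38, with 1 of their values above the floor.

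Several pqn genes showed small differences on more than 1 probe set. Pqn-59, on a pair of _s_at probe sets at 9.84 and 9.42 with GYY4137 and 9.85 and 9.26 in controls, differed by -0.01 ± 0.10 and 0.16 ± 0.12. Pqn-52 was the 1 member whose tested probe sets span plain _at and another class. They differed by -0.18 ± 0.10 and -0.16 ± 0.13 on plain _at and by -0.26 ± 0.14 on _s_at. Pqn-53 differed by -0.24 ± 0.16 on _s_at and by -0.12 ± 0.13 on _x_at. The 4 pqn-83 probe sets differed by 0.10 to 0.16, those of pqn-87 by -0.01 and 0.08, those of pqn-96 by 0.05 and 0.14, and pqn-41 by 0.01 ± 0.15. A missed threshold does not show that these genes had equal levels.

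**Figure D3:**
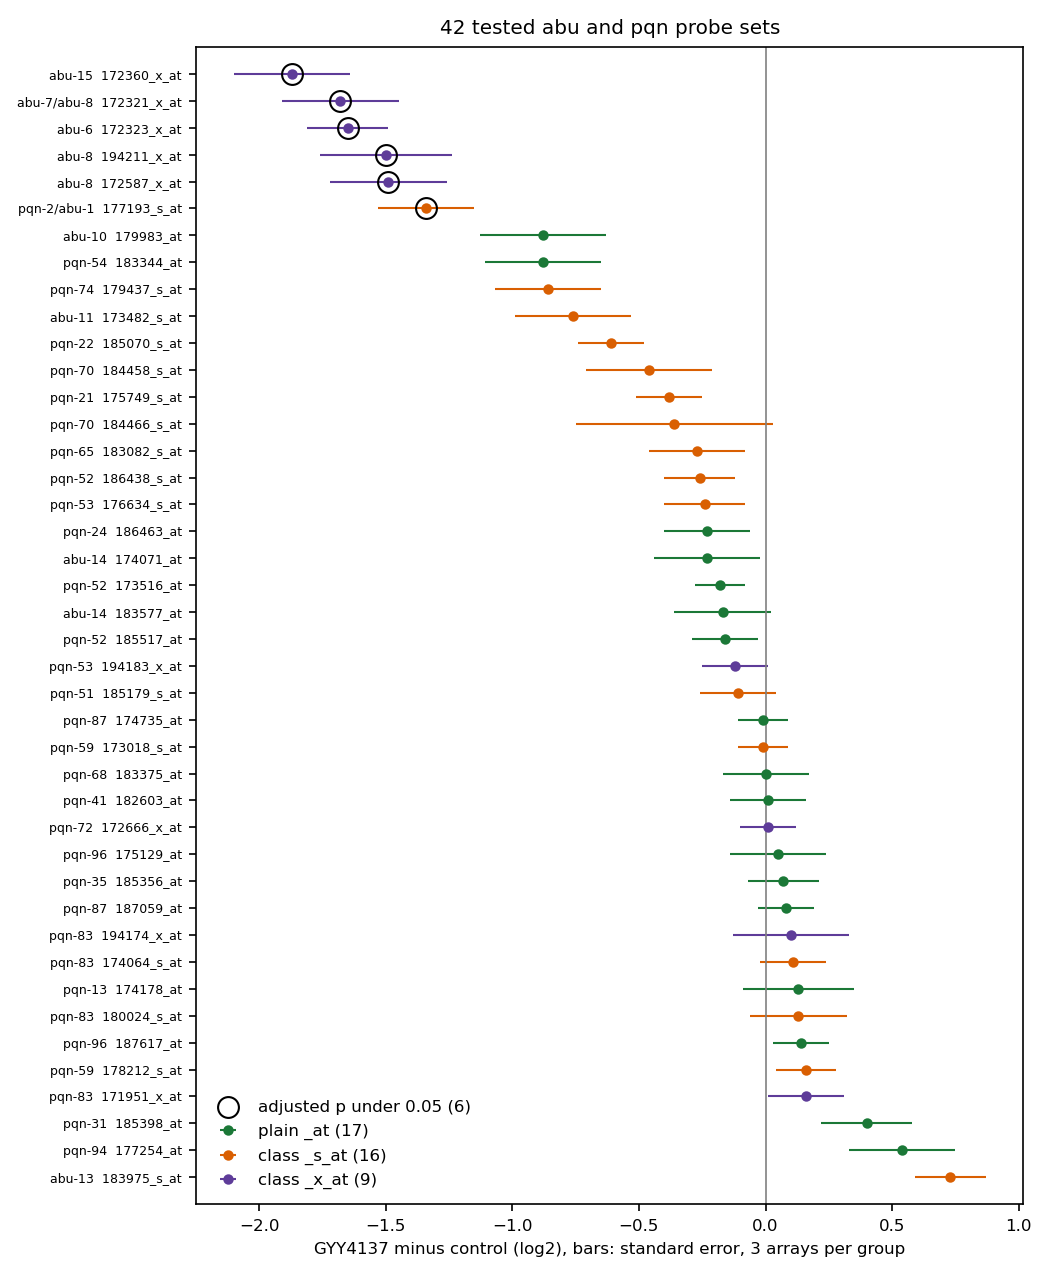
Difference GYY4137 minus control (log2, horizontal axis) with its limma standard error for each of the 42 tested abu and pqn probe sets, sorted from lowest to highest and coloured by probe set class; rings mark an adjusted p under 0.05. The 6 ringed probe sets lie between -1.87 and -1.34, a gap separates them from abu-10 at -0.88, and abu-13 at 0.73 is the highest.

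The 60 members that were not tested had values between 2.13 and 4.33, and 54 of them lay at or below the floor on all 6 arrays. Among the genes read by both plain and cross-binding classes, this held for every probe set of abu-4, pqn-15, pqn-36, pqn-42 and pqn-88, and for all but 1 of pqn-72. In a fit without a filter, 5 of the 60 had an unadjusted limma p under 0.05 in either direction, and none passed after adjustment. Over all 22548 probe sets of that fit, 4.71% were lower at that p. The share that was higher is not given here, so the 5 cannot be read against a background. Besides the pqn-57 and abu-9 probe set, 1 differed by more than 0.5, the _x_at probe set 172442_x_at for pqn-90 and pqn-91 (2.5, 2.48 and 2.75 with GYY4137, 3.03, 3.26 and 3.09 in controls).

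The called abu probe sets also varied together within groups. Replicate 3 was the highest array of its group, with GYY4137 and in controls, for 6 of the 6 called members. The same was seen for 17 of the 42 tested members (40.5%) and for 13% of all tested probe sets. For abu-15, GYY4137 replicate 3 exceeded the average of its group's other arrays by 0.62, and control replicate 3 did so by 0.58. For abu-11 these differences were 0.69 with GYY4137 and 0.47 in controls, and for abu-14 (174071_at) the highest arrays were again both replicate 3. What the replicate 3 arrays share is not given in the sources used here, and its part in these values was not tested.

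Leaving out arrays kept the direction of all 6 called members and changed their calls. Over the 6 leave-outs their differences ran from -2.07 to -1.15. Without GYY4137 replicate 3, 10 members were lowered and 1, abu-13, was raised (23.8% and 2.38%, against 1.69% and 3.04% of all tested probe sets). Abu-11, pqn-74, pqn-54 and pqn-22 then joined the 6. The remaining GYY4137 values of pqn-54, 3.62 and 3.98, lay under the floor, so its difference there is partly set by the filter. In the other leave-outs few probe sets of any kind were lowered. Without control replicate 1, 0 members were lowered, against 0.0497% of all tested probe sets, and 11 members were lower at an unadjusted limma p under 0.05, against 4.5%. Abu-6 was the 1 member lowered in 3 further leave-outs, those of control replicate 2 (0.124% of all tested), control replicate 3 (0.0745%) and GYY4137 replicate 2 (0.124%). Without GYY4137 replicate 1, abu-6 and abu-15 were lowered (0.186% of all tested) and abu-13 was raised (0.596%).

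With both replicate 3 arrays left out, 9 members were lowered and 2, abu-13 and pqn-31, were raised. The shares over all tested probe sets were 2.3% and 3.29%. This setting was chosen after the values were seen. Pqn-54, whose remaining GYY4137 values lay under the floor, was among the 9. With array weights, which gave GYY4137 replicate 3 the lowest weight, 11 members were lowered and 2 raised (26.2% and 4.76%, against 8.48% and 8.77% of all tested probe sets). Abu-10, which passed the filter through the controls alone, was among the 11. With no filter on low values, 0 members were called among 22548 probe sets, of which 0.0532% were lowered, and 17 members were lower at an unadjusted limma p under 0.05, against 4.71%.

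**Figure D4:**
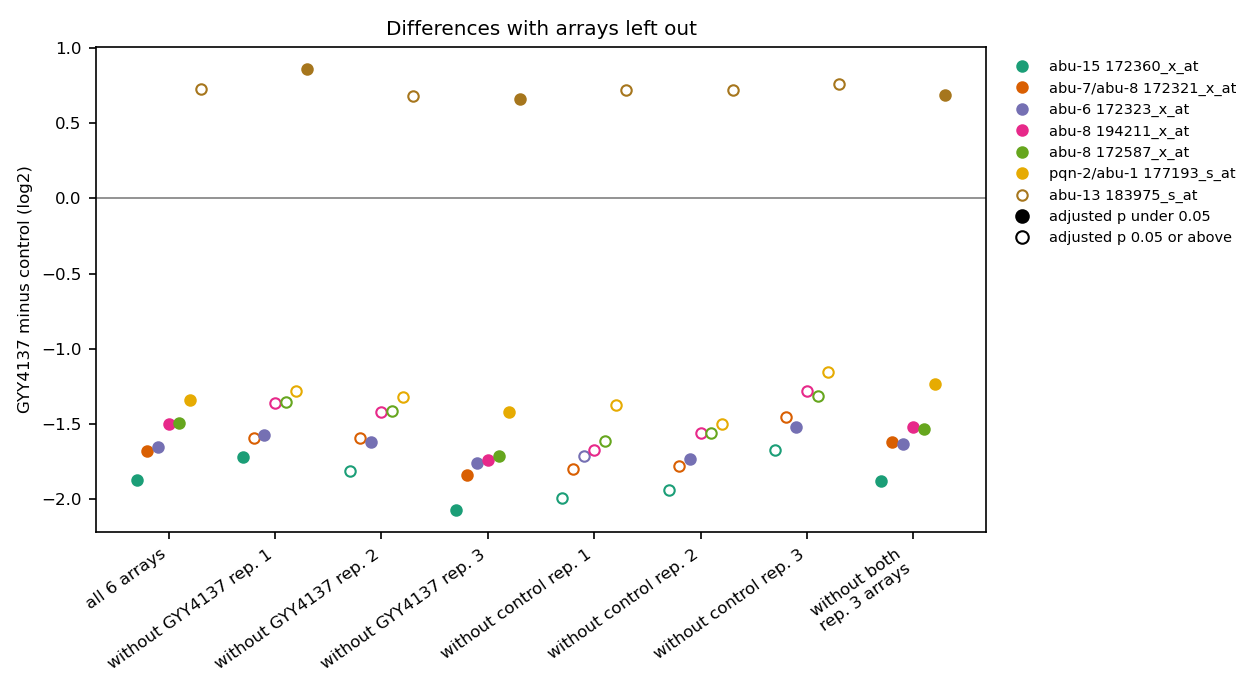
Difference GYY4137 minus control (log2, vertical axis) of the 6 called members and of abu-13 with all arrays, with each array left out in turn, and without both replicate 3 arrays (horizontal axis); filled points have an adjusted p under 0.05. The called members stay between -2.07 and -1.15 in every setting shown, and the number of filled points changes from setting to setting.

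Genes tied to abu and pqn expression by earlier work were read beside them. Of 23 tested genes of the unfolded protein response, 0 were raised, 0 were lowered and 23 did not pass (median -0.06, 9 above and 14 below control). The sensor gene ire-1 differed by -0.52 ± 0.15, the oxidase gene ero-1 by -0.33 ± 0.10, the calnexin gene cnx-1 by -0.41 ± 0.18 (-0.23 without GYY4137 replicate 3) and the transcription factor gene atf-4 by 0.31 ± 0.14. The reporter chaperone gene hsp-4 was at 7.86 ± 0.06 with GYY4137 and 7.87 ± 0.19 in controls (SD, n = 3 each), and xbp-1 was at 7.09 ± 0.22 with GYY4137 and 7.0 ± 0.21 in controls. Of 9 tested genes of the CED-1 engulfment list, 0 passed (median -0.25, and -0.14 without GYY4137 replicate 3). Ced-1 and octr-1 themselves did not pass the filter.

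No tested gene of the pharyngeal muscle, pharyngeal gland or body wall muscle lists passed the test with all arrays. The 7 tested pharyngeal muscle genes lay below control in 7 of 7 cases, against 57.1% of all tested probe sets, with 0 called (median -0.16, and -0.24 without GYY4137 replicate 3). Their mean level ran from 6.82 to 7.12 on GYY4137 arrays and from 7.07 to 7.32 on control arrays. Mlc-2 of this list was read by an _x_at probe set, which can bind transcripts of related genes. The pharyngeal troponin gene tnt-4 differed by -0.73 ± 0.17 (limma adjusted p = 0.0967, and 0.0262 without GYY4137 replicate 3), and the myosin genes myo-1 and myo-2 by -0.32 ± 0.18 and -0.14 ± 0.13. Of 8 pharyngeal gland genes 1 was tested, phat-4 (0.12 ± 0.16, and 0.01 without GYY4137 replicate 3), and 0 of 12 pharynx transcription factor genes passed the filter.

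Several lists for other tissues also lay mostly to 1 side of control, each with 0 called with all arrays. Body wall muscle genes were below control in 7 of 7 tested cases (median -0.36, and -0.39 without GYY4137 replicate 3, where myo-3 and unc-54 were lowered). Their mean levels were 8.41 to 8.75 on GYY4137 arrays and 8.74 to 9.02 on control arrays. Oocyte genes were below control in 8 of 8 (median -0.29, and -0.17 without GYY4137 replicate 3), with mean levels of 8.74 to 9.03 on GYY4137 arrays and 9.13 to 9.24 on control arrays. Sperm genes were above control in 6 of 7 (median 0.28, and 0.19 without GYY4137 replicate 3, where ssq-1 was raised). The msp genes and gsp-3 among them were read by _x_at probe sets, which can bind transcripts of related genes. The medians were 0.07 for 6 intestine genes, 0.12 for 8 epidermis genes and -0.01 for 5 neuron genes. Without GYY4137 replicate 3 these 3 medians were 0.06, -0.02 and 0.02, and nhr-23 of the epidermis list was lowered. In that setting 1.69% of all tested probe sets were lowered and 3.04% were raised. The part of these tissues in the lower abu values was not tested.

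Of 14 tested genes for moulting and the apical matrix, 12 lay above control, against 42.9% of all tested probe sets, and 0 were called. The median was 0.51, and 0.30 without GYY4137 replicate 3, where 2 were raised (mlt-9 and lpr-3) and 1 was lowered (mlt-7). With all arrays the moulting genes mlt-9 and mlt-10 differed by 1.05 ± 0.23 and 0.73 ± 0.22, the matrix genes sym-1 and lpr-3 by 0.91 ± 0.22 and 0.85 ± 0.22, and the peroxidase gene mlt-7 by -0.42 ± 0.15. The control values of mlt-9 (3.4, 3.66 and 3.6) all lay under the floor, so it passed the filter through the GYY4137 arrays alone. For mlt-10 the controls were at 3.62, 3.53 and 4.03. The differences of mlt-9 and mlt-10 are therefore partly set by the filter. The mean level of this list was highest on GYY4137 replicate 3, at 5.83, against 5.23 on the lowest GYY4137 array and 4.99 to 5.08 on control arrays.

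Among 9 tested moulting clock regulators 0 were called (median 0.0, 5 above and 4 below control). Pqm-1, the gene of this list with the smallest p, differed by 0.61 ± 0.12 (limma adjusted p = 0.0663, and 0.0244 without GYY4137 replicate 3). The nuclear receptor gene nhr-23, which drives moults, differed by -0.81 ± 0.19 (limma adjusted p = 0.103, and 0.0397 without GYY4137 replicate 3). Of 10 tested genes for chitin, chitin binding and the pharyngeal cuticle 0 were called (median -0.19, and -0.08 without GYY4137 replicate 3). They include the oocyte marker cpg-1 and the moulting gene mlt-11, so the median does not read the pharyngeal cuticle alone. The astacin protease gene nas-7 was at -0.92 ± 0.25 (limma adjusted p = 0.134, and 0.0244 without GYY4137 replicate 3). Its values were 3.66, 4.02 and 2.97 with GYY4137 and 4.48, 4.44 and 4.5 in controls. Among the GYY4137 values only 4.02 lay above the floor, so the size of this difference is uncertain. The pharyngeal chitin synthase gene chs-2 did not pass the filter.

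**Figure D5:**
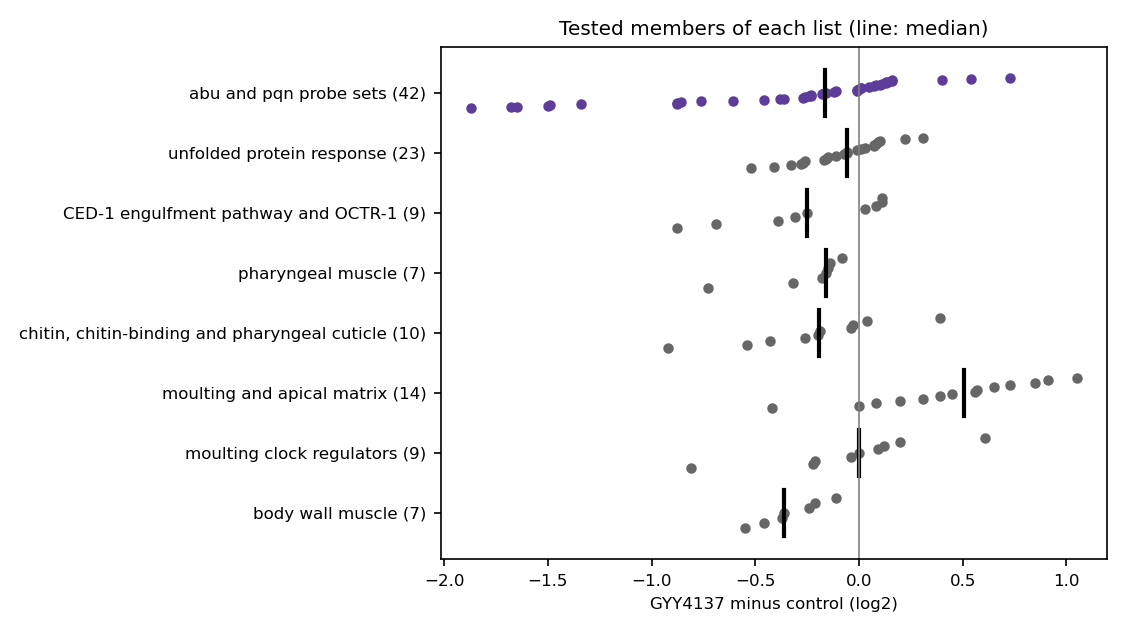
Difference GYY4137 minus control (log2, horizontal axis) of the 42 tested abu and pqn probe sets (purple) and of the tested genes of 7 other lists (grey, 1 probe set per gene); short vertical lines are medians. The abu and pqn row has a separate tail between -1.87 and -1.34, the moulting and apical matrix row is centred at 0.51, and both muscle rows lie below 0.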

How the data were processed

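RNA of whole worms was hybridised to Affymetrix arrays, 3 per group. The deposited values are log2 and were made by the authors with GCRMA, per the submitters' processing notes, whose version is not given. They were read as log2 because they run from 1.88 to 13.3. No further normalization was applied, and 77 control probe sets were left out. Symbols came from the platform annotation and a RefSeq gene table (assembly WBcel235), used for names and gene order only; no array build is given in the sources used here, so no coordinates are printed. GYY4137 minus control was fitted in limma 3.58.1 (R 4.3.3; lmFit, eBayes, two-sided, no trend, no block) over 8053 probe sets, with Benjamini-Hochberg adjustment over all of them. The procedure was tested on simulated data. Other gene lists used the brightest single-symbol probe set of each gene.

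The members and lists were chosen with earlier results of these data known. Named were all called members, all abu probe sets, the 8 pqn probe sets with the smallest p per direction, the 5 with the highest means, genes read in several classes, and up to 4 genes per list by p; other genes were added for their known role or after their values were seen. The alternatives were other filters, scalings, variance models, a replicate block, a wider threshold and arrays left out; leaving out both replicate 3 arrays, and running the alternatives on the other lists and on members outside the naming rule, were chosen after seeing the data. The number of arrays limits the precision.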

Additional observations from a re-analysis of the deposited data

How the results depend on the processing

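The count of lowered members stayed at 6 with a floor of 6, quantile normalization, median centring and an intensity trend, and was 7 at an adjusted p under 0.10. It was 0 with no filter, 11 with array weights, and between 0 and 10 with 1 array left out. Abu-6, abu-8 (194211_x_at) and the pqn-2 and abu-1 probe set passed the floor of 6 through the controls alone. The other called members lay mostly under that floor with GYY4137, so the count in that setting is partly set by the filter. The count of raised members was 1 with quantile normalization, median centring or an adjusted p under 0.10, 2 with array weights, 0 to 1 with 1 array left out, and 2 without both replicate 3 arrays. The median difference was -0.01 with no filter, where 102 members entered. The labels do not say that a replicate number marks a shared batch. Deviations of same-numbered arrays correlated at 0.108, -0.0161 and 0.0513 over all tested probe sets, so the numbers were not taken to pair the samples. Over the 42 tested members, which are not independent of each other, they correlated at 0.223, 0.241 and 0.303, and every array correlated best with its own number, a hint from the data and not the design. With a replicate block 6 members were lowered and 0 raised, with the standard error of abu-15 at 0.12 against 0.23, and over all tested probe sets 22 were lowered and 51 raised, against 33 and 88 without the block.

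Of the 42 tested members, 15 changed sign in some setting, and 0 of those were called in any. With array weights the turned values were -0.03 and -0.07 for pqn-83 (180024_s_at, 194174_x_at), 0.04 for pqn-70 (184466_s_at), -0.02 for pqn-72, 0.04 for pqn-65, 0.12 for pqn-68, -0.08 for pqn-35 and -0.00 for pqn-96 (175129_at). They were 0.06 for pqn-59 (173018_s_at), 0.06 for pqn-87 (174735_at) and 0.07 for pqn-68 with median centring, and 0.07 for pqn-68 with quantile normalization. Without both replicate 3 arrays they were -0.04, -0.05 and -0.22 for pqn-83 (171951_x_at, 180024_s_at, 194174_x_at), 0.23 for pqn-70, -0.05 for pqn-72, 0.02 for pqn-24, 0.08 for pqn-51, 0.16 for pqn-68, -0.10 for pqn-96 and -0.10 for pqn-13. With 1 array left out, values ran from 0.05 to 0.25, -0.09 to 0.25 and -0.14 to 0.26 for these pqn-83 probe sets, from -0.68 to 0.13 for pqn-70, -0.04 to 0.05 for pqn-72, -0.05 to 0.03 for pqn-59, -0.43 to -0.06 for pqn-65, -0.34 to -0.08 for pqn-24, -0.21 to 0.00 for pqn-51, -0.05 to 0.02 for pqn-87, -0.13 to 0.14 for pqn-68, -0.08 to 0.12 for pqn-41 (0.21 without both replicate 3 arrays), -0.15 to 0.22 for pqn-96, -0.03 to 0.16 for pqn-35 and -0.07 to 0.33 for pqn-13. Causes were not tested.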
